A study of Homo sapiens with 16 samples.

Results

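The long non-coding RNA (lncRNA) genes LOC101927888, LOC107986558, LOC105374527 and LINC00881 are described here across all 4 groups of cultured cells. They are 4 of the 43388 genes in the expression table and were picked by name because their levels differed clearly with culture medium or with time. The values that picked them are the same ones given below, so the levels and differences of these 4 genes are a description and carry no test. The cells were cardiomyocytes made from human pluripotent stem cells (hPSC-CMs) of the unmodified WTC11 line, a human induced pluripotent stem cell line, and were differentiated with the GiWi protocol, in which the Wnt pathway is first activated and then blocked. In all, 4 wells were collected at Day 16 in RPMI/B27, the standard culture medium with its B27 supplement. The other wells were kept until Day 30 in 1 of 3 media, with 4 wells each. The first was the same RPMI/B27. Next was RPMI_glcM/B27, which is RPMI/B27 with glucose lowered to 5 mM, the level in plasma-like medium. The last was HPLM/B27, in which human plasma-like medium (HPLM), made with the nutrients and ions of blood plasma, replaced RPMI. All 16 wells came from the same cell line, and the paper describes its RNA sequencing as from 1 differentiation. The spread below is thus that between wells and not between donors, lines or differentiations.

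Long non-coding RNAs are transcripts that are processed like messenger RNA but hold no long reading frame. Some act at the locus that makes them and others act elsewhere in the cell, and many are made in few cell types, so their level often follows cell identity or cell state. In heart muscle, lncRNAs are known near genes of contraction and metabolism and next to the genes of cardiac transcription factors. LINC00881 is also called LIPTER and has been described as a cardiomyocyte lncRNA that helps to carry lipid droplets to mitochondria, where fatty acids are burned. LOC105374527 is named PPARGC1A-AS1 in the current RefSeq annotation, after its neighbour PPARGC1A, which encodes PGC-1alpha, a coactivator of genes for mitochondria and fatty acid oxidation. LOC107986558 is now named TGILR, and LOC101927888 has no other name there.

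RefSeq (GRCh38.p14) placed LOC101927888 at chr6:4341754-4347162 and LOC107986558 at chr6:3905141-3912002, both on the minus strand and 430.0 kb apart. LOC105374527 lay at chr4:23769094-23783037 and LINC00881 at chr3:157089881-157101135, the latter on the plus strand. RefSeq classed all 4 as lncRNA. Apart from LOC107986558, each overlapped another gene. The body of LOC101927888 lay wholly within a longer minus-strand lncRNA gene of GENCODE, chr6:4304942-4583871, and LINC00881 lay opposite LINC00880, chr3:157081667-157123002 on the minus strand. In GENCODE the whole of LOC105374527 lay within the minus-strand gene body of PPARGC1A, chr4:23755041-23904089. In RefSeq the nearest edge of PPARGC1A, which is the end of this minus-strand gene and not its start, lay 8.98 kb away. A plus-strand lncRNA gene of GENCODE, chr4:23779590-23782560, covered 21.3% of LOC105374527, whose own strand was not given in the RefSeq table used here. The library kit marked strand, but the strand setting used in counting was not given in the sources used here, so reads of such overlapping genes on opposite strands cannot be told apart with certainty.

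The RefSeq promoter table of GRCh38.p14 held the start region of 3 of the 4 genes, each with 250 bases before the annotated start and 50 bases from it on. These sequences are shown because they hold the start of each gene as annotated in RefSeq. GENCODE starts LINC00881 at chr3:157089634 and the gene over LOC107986558 at chr6:3912072. Bases before the RefSeq start in these windows thus lie partly within the gene in GENCODE. The letters searched were fixed motifs of cardiac and metabolic factors. Capitals mark the matches, on either strand.
LOC101927888: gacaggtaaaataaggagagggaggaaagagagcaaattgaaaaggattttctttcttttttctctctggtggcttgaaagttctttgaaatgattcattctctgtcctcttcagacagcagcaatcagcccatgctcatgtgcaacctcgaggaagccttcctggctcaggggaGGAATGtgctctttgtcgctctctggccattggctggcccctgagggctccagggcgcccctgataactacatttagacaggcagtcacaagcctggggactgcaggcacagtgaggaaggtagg
LOC107986558: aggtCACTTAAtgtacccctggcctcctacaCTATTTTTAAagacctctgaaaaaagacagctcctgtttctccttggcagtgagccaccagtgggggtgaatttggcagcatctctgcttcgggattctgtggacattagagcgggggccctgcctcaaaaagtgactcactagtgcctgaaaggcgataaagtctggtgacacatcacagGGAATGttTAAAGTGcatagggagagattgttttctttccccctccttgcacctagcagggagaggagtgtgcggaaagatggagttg
LINC00881: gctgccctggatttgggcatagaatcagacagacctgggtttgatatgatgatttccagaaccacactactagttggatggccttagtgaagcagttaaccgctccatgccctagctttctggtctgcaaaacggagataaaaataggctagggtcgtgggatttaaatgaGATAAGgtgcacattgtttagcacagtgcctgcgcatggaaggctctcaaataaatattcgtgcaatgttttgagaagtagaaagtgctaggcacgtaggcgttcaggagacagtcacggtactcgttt
The windows were chr6:4347113-4347412 and chr6:3911953-3912252, both minus strand, and chr3:157089631-157089930, plus strand. The LOC101927888 window held the TEAD-type letters GGAATG at bases 176 to 181, which 14% of the 35116 promoters in the table also held. The LOC107986558 window held GGAATG at bases 213 to 218 and the NKX2-5-type letters TNAAGTG at bases 221 to 227 and, on the other strand, at bases 5 to 11; TNAAGTG occurred in 10.2% of all promoters. It also held a MEF2 motif at bases 32 to 41, found in 2.99% of all promoters. The LINC00881 window held the GATA-type letters GATAAG at bases 172 to 177, found in 6.36% of all promoters. None of these matches overlapped another. The letters TATAAA of the classical core promoter were in none of the 3 windows and in 11.5% of all promoters. The same held for AGGTGT, read by T-box factors (11.4%), for CACGTG, the E-box read by MYC and MondoA (7.26%), and for AAGGTCA, read by estrogen-related receptors (3.92%). G and C made up 50.7% of the LOC101927888 window, 49.7% of the LOC107986558 window and 46.0% of the LINC00881 window, against a median of 58.7% over all promoters. A match is a run of letters and no evidence that a factor binds there.

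The table gave TPM, a transcript level scaled for transcript length and library depth. Whole read counts could be worked back from it, and came to 7744768 to 16183655 reads per library. The mitochondrial ribosomal RNA gene RNR2 took 41.0% to 48.3% of all TPM in the 16 libraries, the small nuclear RNA gene RN7SK took 8.76% to 13.8%, and RNR1 ranged from 49.5 to 29300 TPM. The TPM of a library add up to a fixed total, so the share of these genes bears on the TPM of the rest. Over the 16122 genes tested the median log2 difference from Day 16 to Day 30 in RPMI/B27 was -0.28, and the part of the abundant RNAs in it was not tested. The 8 cardiomyocyte markers, among them TNNT2 and MYH7, summed to 11700 to 15900 TPM in every library. Markers of other cell types had lower sums. The 4 smooth muscle-like markers summed to 200.0 to 892 TPM (ACTA2 58.8 to 474, CNN1 111 to 319, TAGLN 14.7 to 129, and MYH11 at 0 in every library), the 6 hepatic endoderm-like markers to 64.2 to 739 TPM and the 7 fibroblast-like markers to 118 to 435 TPM. The 4 endothelial-like markers summed to 13.1 to 54.0 TPM, nearly all from KDR, with VWF at or near 0, and the 3 pluripotent-like markers to 0.269 to 4.04 TPM, nearly all from LIN28A, with POU5F1 and NANOG at or near 0. In such bulk samples, fewer cells of a type and less RNA per cell cannot be told apart.

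The 4 genes differed widely in level per length. LINC00881 averaged 178 TPM over the 16 libraries, and 4 of the 2342 other lncRNA genes tested had a higher mean. LOC107986558 averaged 17.6 TPM, LOC101927888 7.68 TPM and LOC105374527 4.87 TPM, with 102, 319 and 586 other lncRNA genes above them. In reads, LINC00881 was covered by 231 to 1322 per library, LOC107986558 by 26 to 547, LOC101927888 by 55 to 283 and LOC105374527 by 16 to 88. The 4 genes followed 4 different courses over the groups, as the plot of TPM by library shows.

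**Figure D1:**
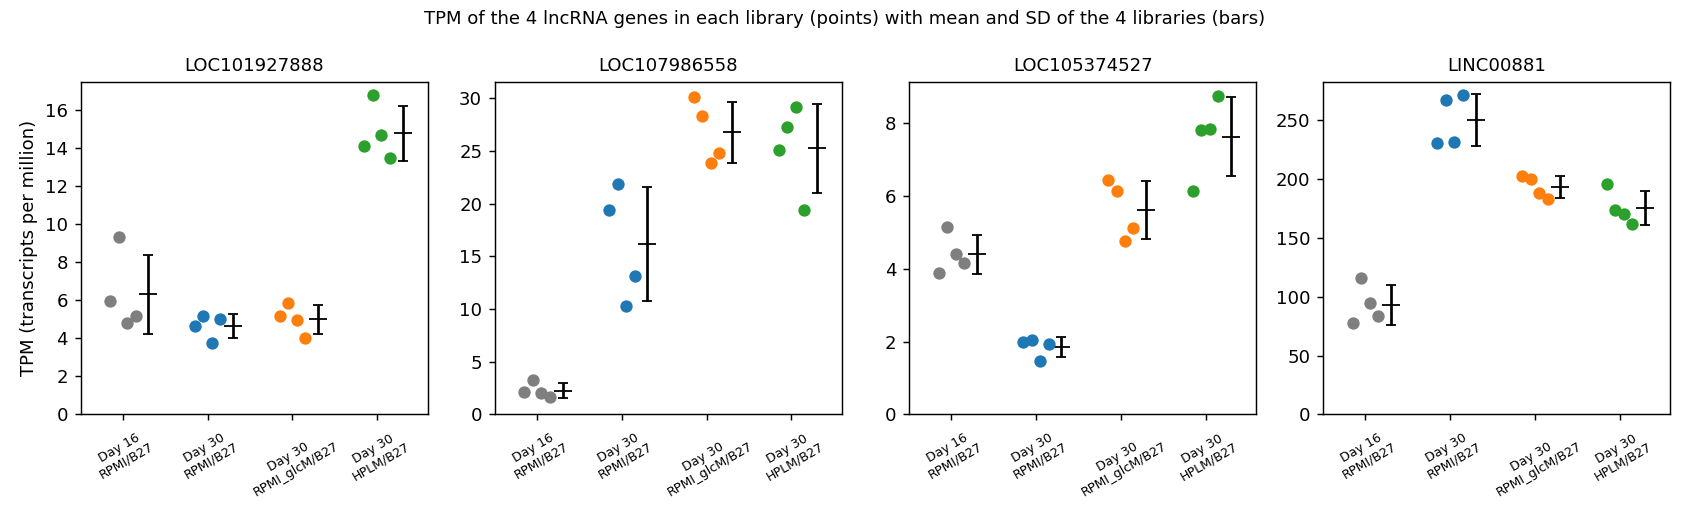
TPM (vertical axes, from 0) of each gene in the 16 libraries; points are libraries, coloured by group, and the bar beside them is the mean with the SD of the 4 libraries. LOC101927888 stood at 13.5 to 16.8 TPM in HPLM/B27 and at 9.30 TPM or less elsewhere, LOC107986558 was lowest at Day 16, LOC105374527 was lowest in Day 30 RPMI/B27 and LINC00881 was highest there.

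LOC101927888 was the gene of the 4 that was high in HPLM/B27 and not in the medium with the same glucose. Its TPM in the 4 Day 30 HPLM/B27 libraries was 14.1, 16.8, 14.7 and 13.5. In Day 30 RPMI_glcM/B27 it was 5.17, 5.88, 4.97 and 4.03, and in Day 30 RPMI/B27 it was 4.67, 5.15, 3.73 and 5.01. The HPLM/B27 libraries lay wholly above both RPMI groups, and those overlapped each other. At Day 16 the values were 5.98, 9.30, 4.78 and 5.16, so that replicate 2 was the highest library outside HPLM/B27. In order, Day 30 RPMI/B27 averaged 4.64 ± 0.639 TPM, Day 30 RPMI_glcM/B27 5.01 ± 0.765, Day 16 6.31 ± 2.06 and Day 30 HPLM/B27 14.8 ± 1.43 (SD, n = 4 each). The first 3 groups overlapped one another, and HPLM/B27 lay wholly above Day 16.

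The mean level of LOC101927888 in HPLM/B27 was 2.95 times that in RPMI_glcM/B27, a difference of 1.40 ± 0.17 (SE) in log2(TPM + 1). No overlap in this direction was found for 2.41% of all genes tested in that comparison. Only 2 of the 2342 other lncRNA genes had a larger difference at this step. The ratio to Day 30 RPMI/B27 was 3.19 (4.13% of genes higher without overlap) and that to Day 16 was 2.34 (3.77%). In contrast, the difference between the 2 glucose levels in RPMI was 0.09 ± 0.17, with 874 other lncRNA genes above it and 1468 below. From Day 16 to Day 30 in RPMI/B27 the difference was -0.34 ± 0.17, close to the median of -0.28 over all genes tested, and it was -0.05 after the libraries were rescaled to a common median of ratios. The read counts behind these levels were 206 to 283 in HPLM/B27, against 55 to 77 with RPMI_glcM/B27. Counting alone would give a coefficient of variation of 6.25% in HPLM/B27, where 9.65% was seen.

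LOC107986558 (TGILR) was the gene that differed most with time. Its TPM at Day 16 was 2.12, 3.30, 2.04 and 1.62. By Day 30 in RPMI/B27 it stood at 19.4, 21.9, 10.3 and 13.1, in RPMI_glcM/B27 at 30.1, 28.3, 23.9 and 24.8, and in HPLM/B27 at 25.1, 27.3, 29.2 and 19.4. All 12 Day 30 libraries lay above all 4 Day 16 libraries. The lowest HPLM/B27 library, replicate 4, lay within the range of RPMI/B27, while the RPMI_glcM/B27 libraries lay wholly above RPMI/B27. In order, Day 16 averaged 2.27 ± 0.720 TPM, Day 30 RPMI/B27 16.2 ± 5.41, Day 30 HPLM/B27 25.3 ± 4.27 and Day 30 RPMI_glcM/B27 26.7 ± 2.90 (SD, n = 4 each); both HPLM/B27 neighbours in this order overlapped it.

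The mean of LOC107986558 at Day 30 in RPMI/B27 was 7.12 times that at Day 16, a difference of 2.36 ± 0.21 in log2(TPM + 1), and 1.72% of all genes tested were higher without overlap in that comparison. Of the 2342 other lncRNA genes, 1 had a larger difference. Against Day 16 the ratio was 11.8 in RPMI_glcM/B27, where 4.24% of genes were higher without overlap, and 11.1 in HPLM/B27 (3.77%). These 3 ratios share the same Day 16 libraries. Within Day 30, RPMI_glcM/B27 stood 1.65 times above RPMI/B27 (difference 0.74 ± 0.21; 4.40% of genes higher without overlap), and HPLM/B27 differed from RPMI_glcM/B27 by -0.09 ± 0.21. The sign of that last small difference turned to 0.03 without HPLM/B27 replicate 4.

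Day 30 RPMI/B27 was also the group in which LOC107986558 varied most between wells, with a coefficient of variation of 33.4% where counting alone would give 5.73%. Replicates 3 and 4, the low ones, were the libraries of that group with the most RNR1, at 14400 and 29300 TPM against 1540 and 619 TPM in replicates 1 and 2. After rescaling, the 4 libraries ran from 13.2 to 18.6 with a mean of 16.7 ± 2.48 (SD), and the RPMI_glcM/B27 libraries ran from 24.6 to 28.7. The rescaled HPLM/B27 libraries ran from 21.7 to 31.1, so on that scale both other media lay wholly above RPMI/B27. The share of all genes that separated in this way on the rescaled values was not computed. Over all genes tested, limma called 1952 for glucose after rescaling, against 354 before it. The part of RNR1 in the levels of LOC107986558 was not tested. Between Day 16 and Day 30 in RPMI/B27 the endothelial-like markers (1 of 4 with a mean of at least 1 TPM) went from a sum of 41.8 to 54.0 TPM to one of 13.1 to 30.4 TPM, and the pluripotent-like markers (1 of 3) from 3.05 to 4.04 TPM to 0.269 to 1.10 TPM; their part in the differences with time, for this gene and the other 3, was not tested. At Day 16, where 26 to 48 reads were counted per library, counting alone would give 17.5% and 31.7% was seen.

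LOC105374527 (PPARGC1A-AS1) was low in Day 30 RPMI/B27 and higher in both media with less glucose. Its TPM at Day 16 was 3.89, 5.14, 4.40 and 4.15, and at Day 30 in RPMI/B27 it was 2.00, 2.03, 1.46 and 1.93. In RPMI_glcM/B27 it was 6.43, 6.13, 4.75 and 5.13, and in HPLM/B27 it was 6.14, 7.80, 7.82 and 8.75. All 4 RPMI/B27 libraries of Day 30 lay below every other library. RPMI_glcM/B27 overlapped Day 16 below it and HPLM/B27 above it, the latter because HPLM/B27 replicate 1 lay within the RPMI_glcM/B27 range. The means were 1.85 ± 0.263 TPM in Day 30 RPMI/B27, 4.40 ± 0.539 at Day 16, 5.61 ± 0.799 in RPMI_glcM/B27 and 7.63 ± 1.09 in HPLM/B27 (SD, n = 4 each).

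The mean of LOC105374527 in RPMI_glcM/B27 was 3.03 times that in RPMI/B27 at Day 30, a difference of 1.21 ± 0.14 in log2(TPM + 1), and 6 of the other lncRNA genes had a larger one at this step. In that comparison 4.40% of all genes tested were higher without overlap. HPLM/B27 stood 4.11 times above RPMI/B27 (4.13% of all genes tested higher without overlap) and 1.36 times above RPMI_glcM/B27. From Day 16 to Day 30 in RPMI/B27 the ratio of means was 0.422 and the difference was -0.92 ± 0.14, where 16.2% of all genes tested were lower without overlap. After rescaling that difference was -0.66. On that scale Day 16 ran from 3.28 to 3.96, RPMI_glcM/B27 from 4.89 to 6.13 and HPLM/B27 from 6.97 to 9.81. The overlaps of RPMI_glcM/B27 seen in TPM were thus absent there, though the share of all genes that separated after rescaling was not computed. The gene rested on few reads, 16 to 24 per library in Day 30 RPMI/B27 and 64 to 88 in HPLM/B27. The spread between wells, 12.3% to 14.2% in the 4 groups, was close to or below the 11.4% to 21.6% that counting alone would give. The hepatic endoderm-like markers (6 of 6 with a mean of at least 1 TPM) summed to 313 to 551 TPM in Day 30 RPMI/B27 and to 89.1 to 202 TPM in RPMI_glcM/B27, and fibroblast-like markers summed to 151 to 298 TPM and 118 to 162 TPM. Their part in the differences between these media, for this gene and the other 3, was not tested.

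PPARGC1A, the gene that LOC105374527 is named after, took the same course, and was examined here for its position. Since the 2 genes share a stretch of chromosome in GENCODE, its test is not independent of the levels that picked LOC105374527. Its mean was 30.4 ± 6.38 TPM in Day 30 RPMI/B27, below the 51.0 ± 6.42 TPM of Day 16, while RPMI_glcM/B27 averaged 58.2 ± 7.96 TPM and HPLM/B27 78.0 ± 11.8 TPM (SD, n = 4 each). It fell from Day 16 to Day 30 in RPMI/B27 by 0.74 in log2(TPM + 1) (limma, adjusted p = 0.00483). There 4 of 4 libraries lay below Day 16, and 16.2% of all genes tested were lower without overlap. PPARGC1A was higher in RPMI_glcM/B27 than in RPMI/B27 by 0.93 ± 0.16 (limma, adjusted p = 0.00589), again without overlap. In that glucose comparison 4.40% of all genes tested were higher without overlap. With only its 2 groups in the fit, the PPARGC1A difference had an adjusted p of 0.0728 by limma. From RPMI_glcM/B27 to HPLM/B27 the difference was 0.41 ± 0.16 (limma, adjusted p = 0.597); after rescaling to a common median of ratios it was 0.49 with an adjusted p of 0.0171. The alternatives for that difference gave adjusted p from 0.00411 to 0.995.

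In TPM, LOC105374527 stood at 8.66% ± 0.823 of PPARGC1A at Day 16 and at 6.28% ± 1.55 by Day 30 with RPMI/B27, whereas RPMI_glcM/B27 gave 9.69% ± 1.14 and HPLM/B27 9.84% ± 1.21 (SD, n = 4 each). In that order, the ranges were 7.72% to 9.69%, 5.12% to 8.49%, 8.41% to 10.8% and 8.47% to 11.4%, so RPMI/B27 at Day 30 was the lowest on average and overlapped the other 3 groups at its upper end. Over the 16 libraries the log2(TPM + 1) of both genes had a Pearson r of 0.944, and within the 12 Day 30 libraries it was 0.949. The points share group and library depth, and in GENCODE the 2 genes share the same stretch of chromosome 4.

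**Figure D2:**
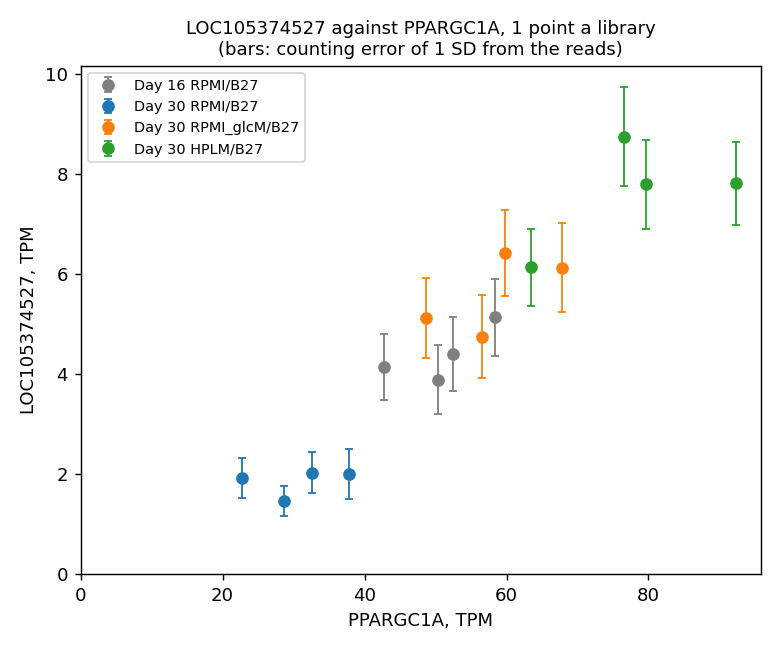
LOC105374527 (vertical axis, TPM) against PPARGC1A (horizontal axis, TPM), 1 point a library, coloured by group; vertical bars are 1 SD of counting error from the reads of LOC105374527. The Day 30 RPMI/B27 libraries sit at 1.46 to 2.03 TPM of LOC105374527 and 22.7 to 37.8 TPM of PPARGC1A, below and to the left of the other libraries.

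LINC00881 (LIPTER) was highest in Day 30 RPMI/B27. Its TPM there was 231, 267, 232 and 272. At Day 16 it was 77.6, 116, 94.8 and 84.0, in RPMI_glcM/B27 it was 203, 200.0, 188 and 183, and in HPLM/B27 it was 196, 174, 170.0 and 162. The Day 16 libraries lay below all Day 30 libraries, and the RPMI/B27 libraries of Day 30 lay above those of both other media, which overlapped each other. In order, the means were 93.1 ± 16.9 TPM at Day 16, 175 ± 14.8 in HPLM/B27, 194 ± 9.52 in RPMI_glcM/B27 and 251 ± 21.8 in RPMI/B27 (SD, n = 4 each).

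The mean of LINC00881 at Day 30 in RPMI/B27 was 2.69 times that at Day 16, a difference of 1.43 ± 0.12 in log2(TPM + 1), and 11 of the other lncRNA genes had a larger one. The ratio to Day 16 was 2.08 with RPMI_glcM/B27 and 1.88 with HPLM/B27, over the same Day 16 libraries. Of all genes tested, 1.72% were higher than at Day 16 without overlap when RPMI/B27 was kept to Day 30. That share was 4.24% for the medium with lowered glucose, RPMI_glcM/B27, and 3.77% for HPLM/B27. The ratio of RPMI_glcM/B27 to RPMI/B27 was 0.773 (difference -0.37 ± 0.12; 2.60% of all genes tested lower without overlap) and that of HPLM/B27 to RPMI/B27 was 0.700 (-0.51 ± 0.12; 3.17%). HPLM/B27 and RPMI_glcM/B27 differed by -0.14 ± 0.12. Rescaling raised the difference from Day 16 to 1.77 and widened the range of Day 30 RPMI/B27 to between 201 and 377, so that it then overlapped both other Day 30 media, at 194 to 210.0 and 174 to 223. The lower level in less glucose thus did not stay free of overlap on that scale.

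Across the 4 genes, the courses were similar in some pairs and opposite in others. Within the 12 Day 30 libraries, log2(TPM + 1) of LOC105374527 and LINC00881 had r = -0.899, and LOC101927888 and LOC107986558 had r of 0.716 and 0.759 with LOC105374527. Over all 16 libraries, LOC107986558 and LINC00881, both low at Day 16, had r = 0.817, while within Day 30 the same pair had r = -0.567. LOC101927888 and LOC107986558, which lie on the same chromosome, had r = 0.261 over 16 libraries and 0.419 over 12. The points share groups of 4 wells, so these values mostly restate the group means. Replicate 2 of Day 16 was the highest of its group for each of the 4 genes.

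**Figure D3:**
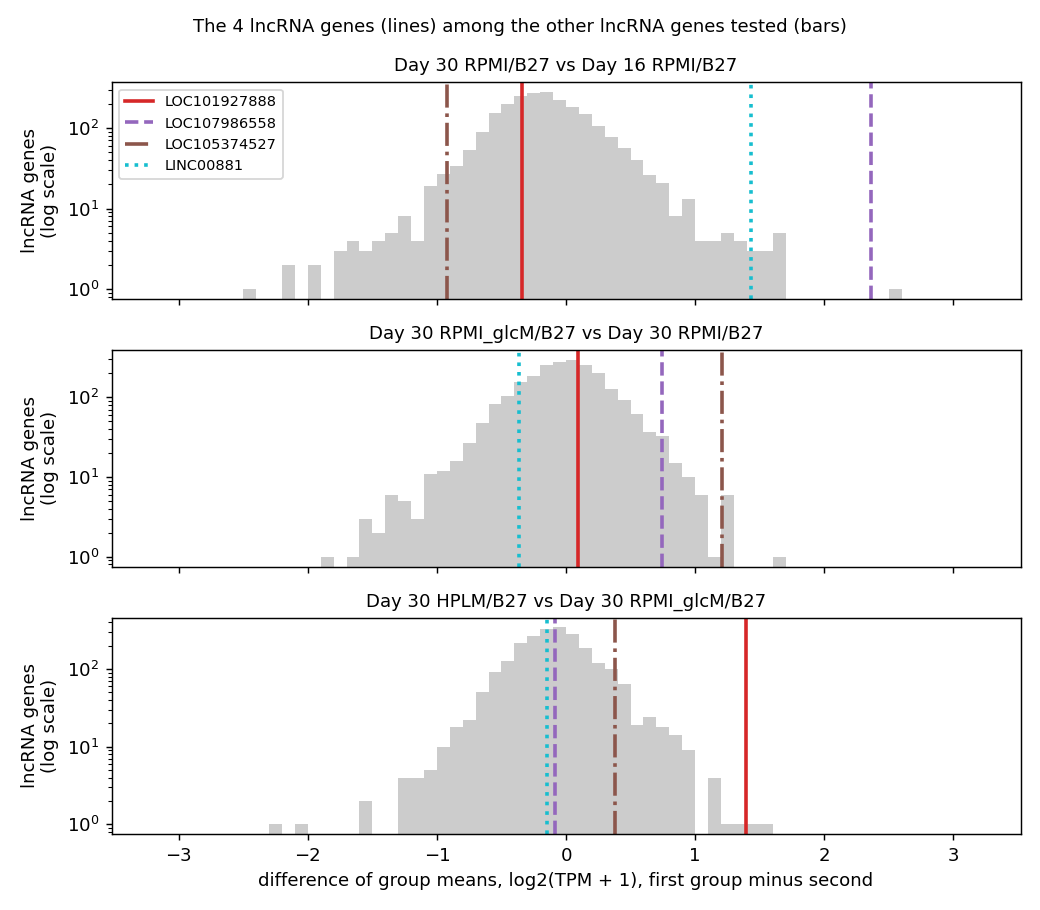
Difference of group means in log2(TPM + 1) (horizontal axis) of the 4 genes (lines) and of the 2342 other lncRNA genes tested (bars; vertical axis, number of genes on a log scale) at each of the 3 steps. LOC107986558 (2.36) and LINC00881 (1.43) lie far to the right in the comparison with Day 16, LOC105374527 (1.21) in the glucose step and LOC101927888 (1.40) in the step from RPMI_glcM/B27 to HPLM/B27.

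Among the other lncRNA genes, how far the number of calls with time exceeded that with medium depended on the scale. Of the 2342 tested, 186 (7.94%) passed an adjusted p of 0.05 by limma between Day 16 and Day 30 in RPMI/B27, 49 higher and 137 lower at Day 30, against 19.9% of all 16122 genes. Under rescaling to a common median of ratios the split was 153 higher and 62 lower, and over all genes it was 1413 and 1412 in place of 336 and 2867. The median difference was -0.18 over the lncRNA genes and -0.28 over all genes. Without Day 16 replicate 1 or 3 the count was 110, without Day 30 RPMI/B27 replicate 4 it was 97 and without replicate 2 it was 334.

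For the lower glucose, 20 lncRNA genes (0.854%) passed, 16 higher and 4 lower, against 2.20% of all genes, and the median difference was -0.01 against 0.05. Under rescaling 59 were higher and 98 lower, so that 157 passed against 215 with time, and limma-voom called 131 against 242. Over all 15423 genes in the limma-voom fit, 1965 passed for glucose and 3352 with time. The limma count of lncRNA genes was 13 without Day 30 RPMI/B27 replicate 3, and 7, 6 and 10 without RPMI_glcM/B27 replicates 1, 2 and 3. Between HPLM/B27 and RPMI_glcM/B27, limma called 0 of the 2342 other lncRNA genes and 0.0682% of all genes. At an unadjusted p under 0.05 there were 199 of the 2342, beside 1053 of all 16122 genes. On the recovered reads limma-voom called 15 lncRNA genes, beside 268 of all 15423 genes in its fit. By limma, leaving out Day 16 replicate 2 or Day 30 RPMI/B27 replicate 1, 2 or 3 gave 2 lncRNA calls. Leaving out Day 30 RPMI/B27 replicate 4 gave 1. The median differences at that step were -0.09 and -0.06.

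Among the other lncRNA genes that passed without overlap between the groups, those with the largest differences were less well covered than LINC00881. Higher at Day 30 than at Day 16 were LINC02455 at 16.0 ± 3.71 against 5.45 ± 2.57 TPM (log2 difference 1.45, limma adjusted p = 0.00151), LOC101929432 at 5.62 ± 1.52 against 1.26 ± 1.03 TPM (1.63, adjusted p = 0.00453) and LOC105376806 at 3.31 ± 3.25 against 0.157 ± 0.314 TPM (1.64, adjusted p = 0.0229). LOC105376806 rested on 1 to 17 reads per library at Day 30 and 0 or 1 at Day 16, so its lowest Day 30 library held 1 read. Lower were LOC100506664 at 4.70 ± 2.10 against 29.1 ± 4.49 TPM (log2 difference -2.46, limma adjusted p = 1.91e-05), LOC101928283 at 1.83 ± 0.888 against 11.0 ± 2.61 TPM (-2.11, adjusted p = 0.000203) and LOC105371078 at 3.33 ± 1.51 against 15.1 ± 2.68 TPM (-1.97, adjusted p = 0.000719). All but 1 of these 6 passed in each alternative in which they were tested. LOC105376806 did not pass in 4 of its 21 alternatives: with only the 2 groups in the fit, or without Day 16 replicate 1 or 3 or Day 30 RPMI/B27 replicate 4 (highest adjusted p = 0.0714).

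In the glucose step, NLGN1-AS1, antisense to the neuroligin gene NLGN1, was at 37.0 ± 6.29 TPM in RPMI_glcM/B27 and 16.3 ± 7.13 TPM in RPMI/B27 (log2 difference 1.21, limma adjusted p = 0.0233), and LOC105374113 was at 1.94 ± 0.358 and 0.274 ± 0.122 TPM (1.20, adjusted p = 0.00379). Lower in RPMI_glcM/B27 were LINC01936 (log2 difference -1.59, limma adjusted p = 0.0171), LOC105373878 at 4.12 ± 1.12 against 10.2 ± 2.24 TPM (-1.14, adjusted p = 0.029) and DLGAP1-AS1 at 3.07 ± 0.933 against 6.25 ± 1.20 TPM (-0.85, adjusted p = 0.0173). LINC01936 had 0 to 2 reads per library in RPMI_glcM/B27 and 8 to 14 in RPMI/B27. LOC105374113 passed in all 22 alternatives. NLGN1-AS1 missed the threshold in 7 of 23 alternatives (highest adjusted p = 0.137), among them those without RPMI/B27 replicate 3 or 4 or RPMI_glcM/B27 replicate 1, 2 or 3. LOC105373878 missed it in 9 of 23 (0.0952), among them those without any 1 library of the groups compared other than RPMI/B27 replicate 4. DLGAP1-AS1 missed it in 3 of 22 (0.172), of which 2 left out RPMI_glcM/B27 replicate 1 or 3, and LINC01936 in 2 of 21 (0.0642), without RPMI_glcM/B27 replicate 1 or 2.

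A list of 42 well-known lncRNA genes was also examined. All 42 were in the table and 32 were tested, 1 of them (TUG1) classed as protein-coding by RefSeq. Between Day 16 and Day 30 in RPMI/B27, 5 of 32 (15.6%) passed, 2 higher and 3 lower. This compares with 19.9% of all genes and 7.94% of the other lncRNA genes. By limma-voom 11 of 34 passed, beside 3352 of 15423 over all genes in that fit. MALAT1, an abundant RNA of nuclear speckles, was higher by 0.49 (limma, adjusted p = 0.018), and HAND2-AS1, beside the cardiac transcription factor gene HAND2, was higher by 0.76 (adjusted p = 0.0437). PVT1, a lncRNA next to the MYC gene, was lower (log2 difference -1.20, limma adjusted p = 0.00423), as were MIR99AHG, the host gene of a microRNA cluster (-0.86, adjusted p = 0.015), and DANCR, known for holding back differentiation (-0.48, adjusted p = 0.038). All 5 kept their direction under rescaling, where DANCR was at -0.16 (adjusted p = 0.438), and there 6 of the list were higher and 2 lower. HAND2-AS1 missed the threshold in 15 of 23 alternatives (highest adjusted p = 0.161), 13 of which left out 1 library, and passed without Day 16 replicate 2, Day 30 RPMI/B27 replicate 3 or RPMI_glcM/B27 replicate 4. DANCR missed it in 10 of 23, among them those without Day 16 replicate 1, 2 or 3 or Day 30 RPMI/B27 replicate 2, 3 or 4. MALAT1 missed it with only the 2 groups and without Day 16 replicate 1 or Day 30 RPMI/B27 replicate 4 (highest adjusted p = 0.0934), and MIR99AHG with only the 2 groups and without the latter (0.0592). The count was 2 without Day 16 replicate 1 or Day 30 RPMI/B27 replicate 4, 3 without Day 16 replicate 3, and 8 and 11 without Day 30 RPMI/B27 replicates 1 and 2.

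The same list gave 0 calls by limma for the lower glucose (1 at an unadjusted p under 0.05, and 1 call by limma-voom) and 0 between HPLM/B27 and RPMI_glcM/B27 (4 at an unadjusted p under 0.05, and 1 call by limma-voom). Over all 16122 genes, 2408 and 1053 had an unadjusted p under 0.05 at these 2 steps. The median differences of the list over the 3 steps were -0.25, -0.03 and -0.15, beside -0.28, 0.05 and -0.06 over all genes.

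The genes around each lncRNA gene were then examined to see whether the neighbourhood moved too. Within 500 kb lay 16 distinct tested genes, 5 around LOC101927888, 7 around LOC107986558, 1 near LOC105374527 and 7 around LINC00881, with some shared on chromosome 6. By limma, 2 of 16 passed from Day 16 to Day 30 in RPMI/B27 (12.5%, against 19.9% of all genes), 1 passed in the glucose step (6.25%, against 2.20%), and 0 passed between HPLM/B27 and RPMI_glcM/B27, with 2 at an unadjusted p under 0.05 and 2 calls by limma-voom. Over all genes, 1053 of 16122 had an unadjusted p under 0.05 in that last comparison, and limma-voom called 268 of 15423. In the time step the neighbour count was 1 without Day 16 replicate 1 or 2, Day 30 RPMI/B27 replicate 3 or 4 or RPMI_glcM/B27 replicate 3. It was 5 without Day 30 RPMI/B27 replicate 1 or 2. Without Day 30 RPMI/B27 replicate 2, 2 passed in the glucose step. PPARGC1A accounted for the glucose call and for 1 of the calls with time.

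The other call with time was LINC00880, which runs opposite to LINC00881. It was at 1.71 ± 0.903 TPM at Day 16 and 3.20 ± 0.346 TPM in Day 30 RPMI/B27, a log2 difference of 0.69 ± 0.22 (limma, adjusted p = 0.0387), with overlap between the 4 libraries of each group. It missed the threshold in 8 of 22 alternatives (highest adjusted p = 0.134): with no filter, with only the 2 groups, or without Day 16 replicate 1, 2 or 4, Day 30 RPMI/B27 replicate 3 or 4, or RPMI_glcM/B27 replicate 3. The mean was 2.24 ± 0.460 TPM with RPMI_glcM/B27 and 1.70 ± 0.485 TPM with HPLM/B27, with differences of -0.38 and -0.27 at those 2 steps (adjusted p = 0.452 and 0.93). LINC02029, the nearest gene on the lower side at 1.33 kb, was at 1.77 to 2.47 TPM on average in the 4 groups. LINC00881 was covered by 231 to 1322 reads per library and LINC00880 by 20.4 on average, and the part of LINC00881 reads in the level of LINC00880 was not tested.

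Around the chromosome 6 pair no neighbour passed at any step in the fit with all 4 groups on log2(TPM + 1), though 4 of them did so in some alternatives. ECI2, which encodes an enzyme for oxidation of unsaturated fatty acids, was at 39.0 to 42.6 TPM in HPLM/B27 and 28.8 to 38.4 TPM in RPMI_glcM/B27, a difference of 0.27 ± 0.14 (limma, adjusted p = 0.809) that was 0.35 under rescaling (adjusted p = 0.0424). CDYL passed by limma in the glucose step with no filter (adjusted p = 0.0431), with a replicate block (0.0348) and without Day 30 RPMI/B27 replicate 2 (0.0457). In the time step PRPF4B passed as higher under rescaling and limma-voom. SLC22A23 and ECI2 passed there as lower at a mean of at least 5 TPM, with a replicate block, and without Day 30 RPMI/B27 replicate 1 or 2. SLC22A23 also did so without Day 16 replicate 4. ECI2 and SLC22A23 are named here after their values were seen. The nearest tested gene below LOC107986558 was PXDC1, 153 kb away, at 12.4 to 13.9 TPM on average in the 4 groups, and the nearest above was PRPF4B, 109 kb away, a kinase gene of the splicing machinery, at 31.9 to 34.9 TPM. The nearest below LOC101927888 was LOC102724096, 152 kb away, at 0.760 to 1.77 TPM, and the nearest above was CDYL, 359 kb away, a gene of a chromatin repressor. CDYL was at 22.2 ± 1.39 TPM at Day 16 and, by Day 30, at 18.7 ± 1.11 TPM with RPMI/B27, 13.9 ± 1.33 TPM with RPMI_glcM/B27 and 15.2 ± 0.969 TPM with HPLM/B27, with a glucose difference of -0.41 ± 0.10 (limma, adjusted p = 0.0508). From RPMI_glcM/B27 to HPLM/B27, where LOC101927888 differed by 1.40, its nearest neighbours differed by -0.26 (LOC102724096) and 0.13 (CDYL), with adjusted p of 0.956 and 0.93.

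**Figure D4:**
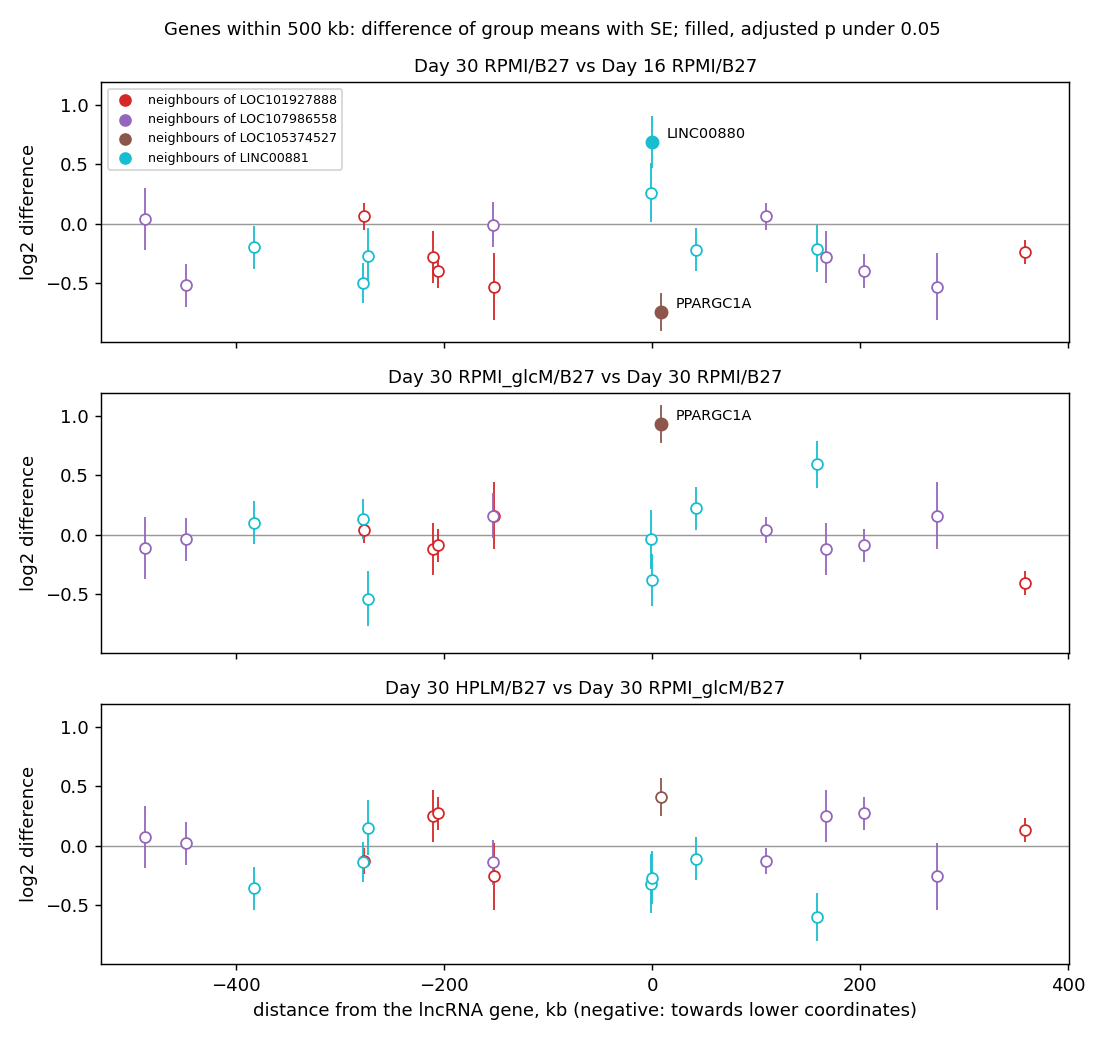
Differences of group means in log2(TPM + 1) with their SE (vertical axes) of the tested genes within 500 kb of each lncRNA gene, by distance in kb (horizontal axis), coloured by the lncRNA gene and filled where the adjusted p was under 0.05. PPARGC1A, 8.98 kb from LOC105374527, is filled in the first 2 panels (-0.74 and 0.93), LINC00880 in the first (0.69) and no gene in the third.

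Finally, the genes whose log2(TPM + 1) followed each lncRNA gene most closely over the 16 libraries were listed by Pearson r among 16121 others. LOC107986558 had the closest followers, with 55 genes above 0.9. The first was TRIM63 (r = 0.993), which encodes the muscle ubiquitin ligase MuRF1, at 85.9 ± 7.25 TPM at Day 16. By Day 30 it was at 149 ± 13.3 TPM with RPMI/B27, at 180.0 ± 5.00 TPM with RPMI_glcM/B27 and at 171 ± 9.36 TPM with HPLM/B27. CKMT2, the creatine kinase of heart and muscle mitochondria, had r = 0.973, the glycosyltransferase gene B3GALT2 had 0.965, and FAM129A and LOC105369466 each had 0.958. Within the 12 Day 30 libraries these 5 had r from 0.812 to 0.934.

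For LOC105374527, 10 genes were above 0.9. CA8, which encodes a carbonic anhydrase-related protein that binds the IP3 receptor, had r = 0.967, the neurofilament gene NEFL 0.946, PPARGC1A 0.944 and the integrin gene ITGA9 0.921. CA8 was lowest in Day 30 RPMI/B27 at 0.841 ± 0.241 TPM, against 2.75 ± 0.450 TPM for Day 16, 3.79 ± 0.338 TPM for RPMI_glcM/B27 and 7.25 ± 0.835 TPM for HPLM/B27. These 4 had r of 0.936 or more within Day 30.

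LOC101927888 had no follower above 0.9 over the 16 libraries in TPM. Its closest were ENO3, the muscle enolase of glycolysis (r = 0.869), RCAN1, an inhibitor of calcineurin (0.861), GPX3, a secreted glutathione peroxidase (0.847), MRPS6, a mitochondrial ribosomal protein gene (0.843), and HAGHL (0.839). Within Day 30 these genes had r from 0.854 (HAGHL) to 0.909 (MRPS6). After rescaling, MRPS6 had r = 0.908 over the 16 libraries. RCAN1 averaged 69.3 ± 16.1 TPM with HPLM/B27 against 28.9 ± 4.04 TPM with RPMI_glcM/B27, and ENO3 averaged 182 ± 27.1 against 122 ± 8.01 TPM. LINC00881 had 10 genes above 0.9, led by SERPINI1, which encodes neuroserpin (0.954), LOC653513 (0.947), the collagen gene COL21A1 (0.934), TCAP, the titin cap of the Z-disc (0.917), and PODN, a matrix proteoglycan gene (0.909). Within Day 30, r fell short of those values for LINC00881, at 0.235 to 0.671, so its likeness rested mainly on Day 16 against Day 30. The libraries share groups, depth and the same abundant RNAs, and 16121 genes were searched, so a high r describes only that 2 genes followed a like course.

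**Figure D5:**
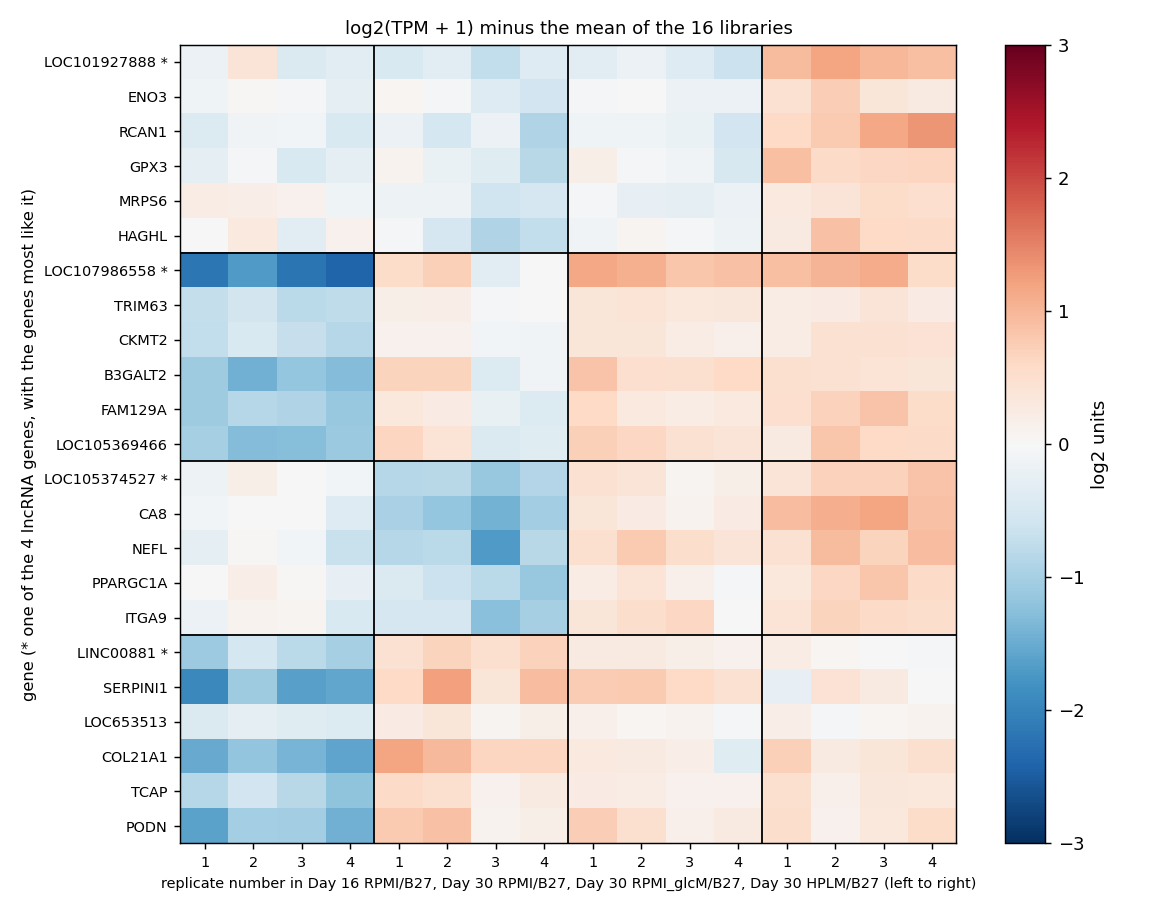
Colour shows log2(TPM + 1) minus the mean of the 16 libraries (scale in log2 units) for each lncRNA gene, marked by an asterisk, and the 4 or 5 genes most like it (vertical axis), with libraries by group and replicate along the horizontal axis. The block of LOC107986558 is blue in the 4 Day 16 libraries, that of LOC105374527 is blue in Day 30 RPMI/B27, and that of LOC101927888 is red in HPLM/B27.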

How the data were processed

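Total RNA of 16 wells (4 groups of 4) was made into libraries with the Takara SMARTer stranded kit and sequenced. Per the labels and the study's methods, the authors aligned reads to hg38 with STAR 2.5.3a, counted genes with featureCounts 2.0.3, and deposited 1 table of TPM for 43388 genes; the strand setting, annotation and TPM formula are not given in the sources used here. Gene symbols, positions and types were taken from RefSeq (GRCh38.p14), where 37627 genes matched.

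Whole reads were recovered from the TPM for all 31047 genes above 0 (each within 0.02 of a whole number), with gene lengths scaled by 738 of 795 microRNA genes. One read on a transcript of 1 kb was worth 0.139 to 0.314 TPM; coefficients of variation given for counting cover counting error only. The 16122 genes that averaged 1 TPM or more were fitted with limma 3.58.1 (R 4.3.3, lmFit and eBayes with trend) on log2(TPM + 1), all 4 groups in the fit, with Benjamini-Hochberg adjustment within each of 3 comparisons and a threshold of 0.05. A difference on this scale understates that of a low gene. Since the study's own test needs counts, limma took its place. The fit was tested on simulated data. Differences are first group minus second. Wells of 1 line, by the paper's account from 1 differentiation, are the replicates. The p-values thus measure the spread between wells, which may be technical.

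The 4 genes, the lists and the tests were chosen with earlier results of these data known. Genes named beside them are the nearest tested gene on either side, neighbours within 500 kb that passed, the 5 genes of highest r (1 of them is not reported here), list members that passed, and the 3 lncRNA genes of largest difference in each direction among those that passed without overlap; 1 such gene, on a sex chromosome, is not named. Alternatives were a pseudocount of 0.1, no filter, a minimum mean of 5 TPM, median-of-ratios rescaling of the TPM, only the 2 groups compared, a replicate block and each library left out. Chosen after seeing the data was limma-voom on the recovered reads (mean of at least 10 reads, median-of-ratios library sizes).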

Additional observations from a re-analysis of the deposited data

Results flagged for a closer look

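In groups of 4 libraries, a value was singled out when its gap to the next one, divided by the range of the group, passed the 95% critical value of Dixon. Of 180 groups from 45 named genes, 6 were, none of them of the 4 lncRNA genes; chance gives about 1 in 20. CKMT2 was at 22.5 TPM in Day 30 HPLM/B27 replicate 1, with the others at 26.3 to 26.9. NEFL was at 0.905 TPM in Day 30 RPMI/B27 replicate 3, with the others at 2.41 to 2.5. COL21A1 was at 16.9 TPM in Day 30 RPMI_glcM/B27 replicate 4, with the others at 25.7 to 27.3. LOC105376806 was at 0.629 TPM in Day 16 replicate 2 and at 0 in the other 3 libraries. LOC101929432 was at 2.37 TPM in Day 30 HPLM/B27 replicate 1, with the others at 4.53 to 4.80. DANCR was at 19.1 TPM in Day 30 RPMI/B27 replicate 1, with the others at 10.8 to 12.2.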

How the results depend on the processing

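Counts of calls moved with several settings, and the cause was not tested. Counts over all genes were 3203, 354 and 11 for time, glucose and HPLM/B27 against RPMI_glcM/B27. With median-of-ratios rescaling the glucose and HPLM/B27 counts were 1952 and 257 (160 higher and 97 lower, against 8 and 3). With limma-voom, 3352, 1965 and 268 of 15423 genes passed for time, glucose and HPLM/B27. With only the 2 groups compared, the counts were 998, 45 and 33.

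For the other lncRNA genes (186, 20 and 0), counts were 157 for glucose and 19 for HPLM/B27 with rescaling and 131 and 15 with limma-voom. They were 73, 2 and 1 with only the 2 groups, 299 for time and 1 for HPLM/B27 with no filter, and 91 for time and 8 for glucose at a mean of at least 5 TPM. For the neighbours (2, 1 and 0), counts were 3 for glucose and 2 for HPLM/B27 with rescaling, 2 and 2 with limma-voom, 1 for time and 2 for glucose with no filter, and 1 for time and 0 for glucose with only the 2 groups. For the known lncRNA list (5, 0 and 0), they were 8 for time and 1 for glucose with rescaling, 11, 1 and 1 with limma-voom, and 1 for time with only the 2 groups.

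The main fit did not pair samples by replicate number. Deviations of same-numbered libraries correlated at -0.154 to 0.421 (median 0.0799, 24 pairs) and others at -0.534 to 0.335 (median -0.0344, 72 pairs). These ranges overlap and cannot tell whether same-numbered wells were handled together. With the replicate block, counts over all genes were 721 for glucose and 48 for HPLM/B27, those of lncRNA genes 43 and 4, those of neighbours 5 for time and 2 for glucose, and that of the known list 10 for time; the block moved no other count by over 1.5 times.

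With 1 library left out, counts over all genes ran from 1761 to 5012, 143 to 441 and 1 to 35. For time they were 1761, 1866, 5012 and 1807 without Day 16 replicates 1 and 3 and Day 30 RPMI/B27 replicates 2 and 4. For glucose they were 225 without RPMI/B27 replicate 3 and 180, 143, 176 and 217 without RPMI_glcM/B27 replicates 1 to 4. For HPLM/B27 each library but Day 16 replicates 3 and 4 moved the count by over 1.5 times. The ranges were 97 to 334, 6 to 27 and 0 to 2 for lncRNA genes, 1 to 5, 1 to 2 and 0 to 0 for neighbours, and 2 to 11, 0 to 0 and 0 to 0 for the known list. For the 4 lncRNA genes, none of the 192 differences with a library left out moved by as much as the spread between wells, and 1 changed sign. With the pseudocount of 0.1, 3 of 12 differences moved by more than that spread, with rescaling 3 and with limma-voom 4, all without a change of sign. Depth limits LOC105374527 most, at 16 to 88 reads per library.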
